A study of Mus musculus with 8 samples.

Results

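Chemokine ligand genes encode the small secreted proteins, and a few membrane-bound ones, that attract leukocytes to a tissue. A list of 35 mouse ligand genes was followed on 8 arrays, and 34 of the 35 were represented, by 41 of the 39429 probes; no probe matched Cxcl11 under the accessions of the gene table used here. The members were chosen by name: the CC ligands, the CXC ligands with Pf4 and Ppbp, Cx3cl1 and Xcl1. The arrays came from 2 mouse cell lines that had shared a transwell co-culture for 48 h. 3T3-L1 is a fibroblast-like line that can be differentiated into adipocytes and is called pre-adipocytes by the study, and RAW 264.7 is a transformed macrophage line. In each line 1 array was hybridised with RNA of cells given cortisol (100 µM), 1 with serotonin (100 µM), 1 with cortisol-serotonin (100 µM of each by the sample labels) and 1 with untreated cells. The profiled cells lay in the lower well and the other line lay in the insert above them, so that every array, the untreated ones included, is from co-cultured cells. Cells grown alone were not analysed here. The question put to the arrays was which ligand genes each line expressed in co-culture and how far the 2 stress hormones altered them.

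Chemokines act through G protein-coupled receptors on the arriving cells. Ccl2, Ccl7 and Ccl12 bind Ccr2 and draw monocytes, and Ccl3, Ccl4 and Ccl5 draw macrophages and T cells. Cxcl1, Cxcl2, Cxcl3, Cxcl5 and Ppbp bind Cxcr2 and draw neutrophils, whereas Cxcl9 and Cxcl10 are induced by interferon and bind Cxcr3. In adipose tissue Ccl2 is best known as a signal by which fat recruits macrophages, and many of the inflammatory ligands are NF-kB targets that glucocorticoids can repress.

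On each array the sample was labelled with Cy5 and a reference common to all arrays with Cy3, and a value is the loess-normalised log2 ratio of Cy5 to Cy3 unless stated. A probe was taken as measured where the scanner software called its spot well above background. The 4 arrays of a line lay on 1 slide, and each treatment had the same position on both slides, so that line and slide cannot be told apart, nor treatment and position. With 1 array per condition, no difference between a treated and an untreated array has a replicate, and the labels do not say that the 4 arrays of a line are separate cultures. The labels were checked with glucocorticoid targets. Fkbp5 differed from the untreated array of 3T3-L1 cells by 0.14 on the array labelled cortisol, by 1.31 on that labelled serotonin and by 1.44 on that labelled cortisol-serotonin, and Zbtb16 by -0.19, 1.94 and 1.96 on the same arrays. Over the list of 12 targets, 3 of 12 were above the untreated 3T3-L1 array on that labelled cortisol (median -0.35), 9 of 12 on that labelled serotonin (median 0.40) and 8 of 11 measured on that labelled cortisol-serotonin (median 0.62). Not all followed this: Mt2 was at -0.30, -0.31 and -0.47, and Klf9 at 0.56, 0.79 and 0.87. On the 3T3-L1 array labelled cortisol 2 of the 12 targets were at least 2-fold lower than untreated. The lowest was Errfi1 at -1.59, against -0.04 and -0.10 on those labelled serotonin and cortisol-serotonin. The medians on the same arrays of RAW 264.7 cells were -0.27, 0.33 and 0.01 over 11 targets. Arrays are therefore named by their labels below, and no effect is credited to a hormone. On the array of RAW 264.7 cells labelled serotonin, spots not above background had a median Cy5 signal of 66 units, against 39 to 44 on the other 3 arrays of that line.

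Macrophage marker genes were far lower on the 3T3-L1 arrays, with a median difference of -4.29 (log2, 12 of 12 tested genes lower), and fibroblast and pre-adipocyte markers were higher (8 of 8 tested genes, median 5.28). Of 15 macrophage markers with a probe, 12 were nevertheless above background on all 4 3T3-L1 arrays, and Adgre1, Spi1 and Fcgr1 on none. Their normalised Cy5 signals summed to 11579 to 15521 units on the 3T3-L1 arrays, against 180803 to 201107 units on those of RAW 264.7 cells. Fibroblast markers summed to 270055 to 352370 units on the 3T3-L1 arrays and to 6602 to 7257 units on those of RAW 264.7 cells. Among 9 adipocyte markers, Fabp4, Lpl and Pparg were above background on all 4 3T3-L1 arrays and Adipoq, Plin1, Cidec, Lep, Cfd and Cebpa on none.

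Of the 34 ligand genes, 19 were above background in Cy5 on all 4 3T3-L1 arrays, 3 on some and 12 on none. Of the same genes, 16 were above background on all 4 RAW 264.7 arrays, 6 on some and 12 on none. Among all 32395 genes and unnamed transcripts on the array, 46.3% were above background on all 4 3T3-L1 arrays and 41.8% on all 4 of RAW 264.7 cells. The lines shared 12 ligand genes on all 8 arrays, namely Ccl2, Ccl3, Ccl4, Ccl5, Ccl7, Ccl8, Ccl9, Ccl19, Ccl25, Cxcl2, Cxcl16 and Cx3cl1. Cxcl1 and Cxcl12 were above background on every array of 3T3-L1 cells and on none of RAW 264.7 cells, and Ccl6, Cxcl3 and Pf4 showed the opposite. Below background on all 8 arrays were Ccl1, Ccl11, Ccl12, Ccl20, Cxcl9, Cxcl13, Cxcl15 and Xcl1. For these only a bound exists, which does not show that the genes were silent.

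**Figure D1:**
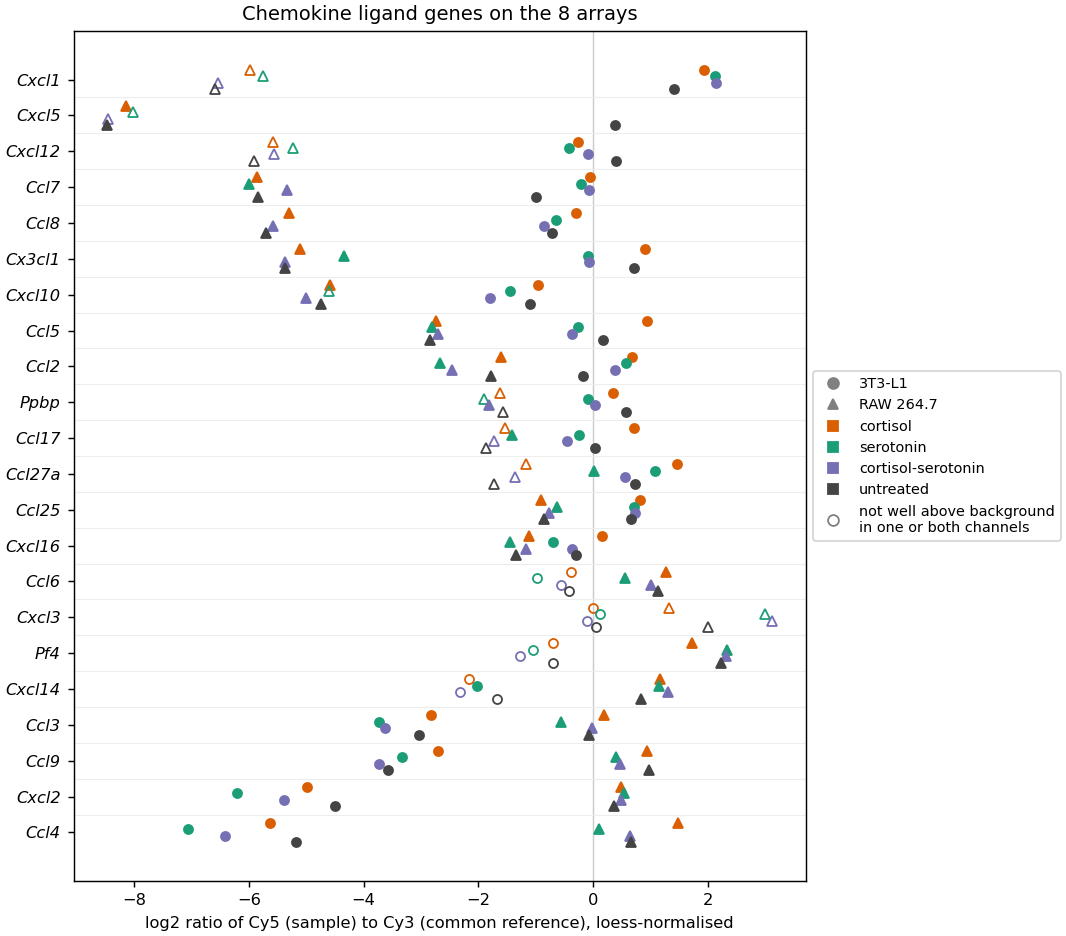
Loess-normalised log2 ratio of Cy5 to Cy3 (x axis) of 22 ligand genes (y axis) on the 8 arrays, with circles for 3T3-L1 cells, triangles for RAW 264.7 cells, a colour for each labelled treatment, and open symbols where a channel was not well above background; genes with several probes show 1 probe. Ccl7 lay between -0.99 and -0.05 on the 3T3-L1 arrays and between -6.00 and -5.34 on those of RAW 264.7 cells, and Ccl4 lay between -7.06 and -5.18 in 3T3-L1 cells and between 0.10 and 1.49 in RAW 264.7 cells.

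The lines differed far more than the treatments. In both channels 10 ligand genes were measured on all 8 arrays, and limma, with treatment as a block, called all 10 of them between 3T3-L1 and RAW 264.7 cells. This count has little weight by itself, because 74.3% of the 10995 genes tested were called. The sizes stood further out: 8 of the 10 ligand genes were called at 4-fold or more, against 10.9% of all genes, and the median absolute difference was 3.62 for the ligand genes, against 0.62 for all genes (log2). Of the 10, 6 were higher in 3T3-L1 cells, beside 38% of all genes, and 4 were lower, beside 36.3%.

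The Ccr2 ligands Ccl7 and Ccl2 were on the side of the pre-adipocytes, whereas Ccl12 was below background in both lines. Ccl7 was 43.2-fold higher in 3T3-L1 cells, at 5.43 ± 0.161 (log2 difference ± SE, limma adjusted p = 6.76e-10). Its values were -0.05, -0.20 and -0.07 on the 3T3-L1 arrays labelled cortisol, serotonin and cortisol-serotonin and -0.99 on the untreated one, against -5.86, -6.00, -5.34 and -5.85 on the matching arrays of RAW 264.7 cells. No value of one line came near those of the other. Ccl2, which binds the same receptor, was 5.65-fold higher in 3T3-L1 cells (2.50 ± 0.22, limma adjusted p = 2.47e-06). It read 0.69, 0.58, 0.39 and -0.17 on the 3T3-L1 arrays labelled cortisol, serotonin, cortisol-serotonin and untreated, against -1.61, -2.67, -2.46 and -1.77 on those of RAW 264.7 cells in the same order. Unlike Ccl7, it gave a strong signal in both lines, with Cy5 signals of 60844 to 118096 units in 3T3-L1 cells and 11273 to 27006 units in RAW 264.7 cells. Ccl8, another CC ligand, was between -0.86 and -0.29 on the 3T3-L1 arrays. It was between -5.71 and -5.30 on 3 arrays of RAW 264.7 cells. On the array of that line labelled serotonin its spot was marked as an outlier by the scanner software, so Ccl8 was not tested.

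Cx3cl1 encodes fractalkine, which is anchored in the membrane, binds Cx3cr1 on monocytes and macrophages, and was 42.9-fold higher in 3T3-L1 cells (5.42 ± 0.254, limma adjusted p = 1.82e-08). Its values were 0.91, -0.08, -0.07 and 0.72 on the 3T3-L1 arrays labelled cortisol, serotonin, cortisol-serotonin and untreated, and -5.11, -4.34, -5.37 and -5.38 on the RAW 264.7 arrays. Its receptor gene Cx3cr1 ran the other way, at -6.04 ± 0.17 (limma adjusted p = 4.71e-10), so that ligand and receptor transcripts stood in different lines. Ccl5 averaged 0.12 ± 0.59 in 3T3-L1 cells and -2.77 ± 0.06 in RAW 264.7 cells (SD, n = 4 arrays each), 7.45-fold higher in 3T3-L1 cells (2.90 ± 0.191, limma adjusted p = 2.56e-07). On single arrays it read 0.94, -0.26, -0.36 and 0.18 in 3T3-L1 cells labelled cortisol, serotonin, cortisol-serotonin and untreated, and -2.74, -2.81, -2.71 and -2.84 in RAW 264.7 cells. The spread over treatments thus lay almost wholly in the pre-adipocytes.

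Ccl25, the ligand of Ccr9, and Cxcl16, a membrane-bound ligand of Cxcr6, differed less. Ccl25 averaged 0.73 ± 0.06 in 3T3-L1 cells and -0.79 ± 0.12 in RAW 264.7 cells (SD, n = 4 arrays each; 2.87-fold, limma adjusted p = 5.3e-07). Its brighter probe read 0.82, 0.72, 0.74 and 0.67 on the 3T3-L1 arrays labelled cortisol, serotonin, cortisol-serotonin and untreated, against -0.91, -0.62, -0.77 and -0.85 on those of RAW 264.7 cells. The averages rest on this probe alone, because the other did not pass on the RAW 264.7 array labelled cortisol-serotonin. That dimmer probe read 0.33 to 0.61 in 3T3-L1 cells and -0.35 to -0.17 in RAW 264.7 cells. Without the filter on dim probes the Ccl25 difference was 1.15 (log2). Cxcl16 had values of 0.16, -0.70, -0.36 and -0.30 in 3T3-L1 cells and -1.11, -1.45, -1.16 and -1.34 in RAW 264.7 cells, with treatments in the same order. The lines did not overlap for either gene, and Cxcl16, at 1.96-fold (limma adjusted p = 3.41e-05), was the smallest of the 10 differences. Its Cy5 signals in RAW 264.7 cells were near the floor, at 80 to 93.5 units. With the processed signals of the scanner software its log2 difference was 1.58, against 1.51 for Ccl25, so size and rank depended on the processing.

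The 4 ligand genes lower in 3T3-L1 cells were the macrophage and T cell attractants Ccl3 and Ccl4, the Ccr1 ligand Ccl9 and the neutrophil attractant Cxcl2. Ccl4 was 111-fold lower in 3T3-L1 cells (-6.80 ± 0.2, limma adjusted p = 6.55e-10), the widest gap of the 10. It read -5.64, -7.06, -6.41 and -5.18 on the 3T3-L1 arrays labelled cortisol, serotonin, cortisol-serotonin and untreated, and 1.49, 0.10, 0.64 and 0.67 on those of RAW 264.7 cells. Cxcl2 was 53.7-fold lower (-5.75 ± 0.238, limma adjusted p = 7.19e-09), with -4.99, -6.21, -5.39 and -4.50 in 3T3-L1 cells and 0.49, 0.54, 0.49 and 0.37 in RAW 264.7 cells. Its ratios in RAW 264.7 cells were close to each other, with an SD of 0.08, against 0.72 in 3T3-L1 cells. The Cy5 signal in RAW 264.7 cells was less even, at 2848, 6528, 9260 and 4078 units with treatments in the same order. The reference signal moved with it, at 2977, 5548, 10224 and 4163 units. In 3T3-L1 cells Cy5 was near the floor, at 80.5 to 160 units. Which reading of RAW 264.7 cells holds was not tested. Ccl9 was 16.4-fold lower (limma adjusted p = 3.59e-09), at -2.71, -3.33, -3.73 and -3.57 in 3T3-L1 cells and 0.94, 0.41, 0.48 and 0.97 in RAW 264.7 cells. Each of these genes was still above background on every array of 3T3-L1 cells, as were most macrophage markers. The part of macrophage RNA in the low values of 3T3-L1 cells was not tested.

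For Ccl3, the ratio and the sample channel gave different results. The log2 ratios were -2.82, -3.74, -3.62 and -3.03 on the 3T3-L1 arrays labelled cortisol, serotonin, cortisol-serotonin and untreated, and 0.19, -0.55, -0.01 and -0.06 on those of RAW 264.7 cells, a 9.16-fold lower level in 3T3-L1 cells (limma adjusted p = 5.81e-09). Yet the signal of the common reference, which should be the same RNA on every array, ran over a 139-fold range at this spot. Among 12608 probes with a mean reference signal above 500 units, the median range was 2.09-fold, and 0.119% had a wider one than Ccl3. In RAW 264.7 cells the Cy3 signal was 145.5 units on the array labelled cortisol, 3932 on that labelled serotonin, 15636 on that labelled cortisol-serotonin and 805.5 on the untreated one. The Cy5 signal moved with it, at 80.0, 2069, 10349 and 521.5 units. From the Cy5 channel alone the difference between the lines was -0.81 and was not called (limma, adjusted p = 0.441). Whether the ratio holds at a spot with such a reference was not tested.

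**Figure D2:**
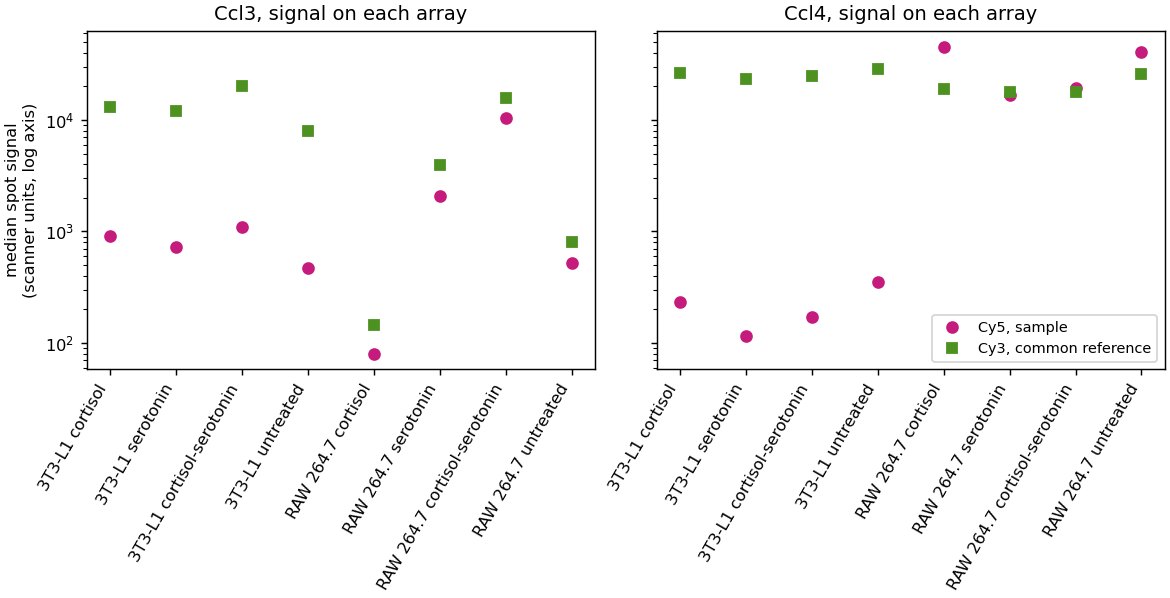
Median spot signal (y axis, scanner units, log axis) of Ccl3 and, for comparison, Ccl4 on each array (x axis), with circles for the Cy5 sample channel and squares for the Cy3 reference channel. The Ccl3 reference signal ranged from 145.5 to 20224 units, while that of Ccl4 stayed between 17728 and 28447 units.

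A further 5 ligand genes were seen in only 1 line, so that a fold is a lower bound, set by the higher of the gene's own dim signal and the lowest signal among spots above background. Cxcl1, a neutrophil attractant, was at least 173-fold higher in 3T3-L1 cells. Its Cy5 signals were 15361, 28473 and 23968 units on the 3T3-L1 arrays labelled cortisol, serotonin and cortisol-serotonin and 13363 units on the untreated one, against 51 to 76 units on those of RAW 264.7 cells. Cxcl12, the ligand of Cxcr4 that stromal cells make, was at least 31.7-fold higher by one probe and at least 35-fold by the other. Both probes lay between 1686 and 4231 units in 3T3-L1 cells and between 40 and 81 units in RAW 264.7 cells.

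Pf4, a chemokine known from platelet granules, was at least 9.16-fold higher in RAW 264.7 cells, with Cy5 signals of 50 to 70 units in 3T3-L1 cells and 374 to 830 units in RAW 264.7 cells. Ccl6, a CC ligand of rodents, was at least 3.12-fold higher in RAW 264.7 cells, with 45 to 55 units in 3T3-L1 cells and 183.5 to 217 units in RAW 264.7 cells. Cxcl3 was at least 4.61-fold higher in RAW 264.7 cells. Its spots gave 98, 563.5, 462 and 163.5 units on the RAW 264.7 arrays labelled cortisol, serotonin, cortisol-serotonin and untreated, against 41 to 48 units in 3T3-L1 cells. The reference was below background at this probe on all 8 arrays, so that the spread among the RAW 264.7 arrays could not be expressed as a measured ratio.

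Another 9 ligand genes were above background on some arrays of a line. Cxcl5, a Cxcr2 ligand, had Cy5 signals of 25277, 39949, 33150 and 26942 units on the 3T3-L1 arrays labelled cortisol, serotonin, cortisol-serotonin and untreated. RAW 264.7 cells gave 59, 69, 63 and 62 units, and only the arrays labelled cortisol and untreated passed as above background. The scanner software marked its spot as an outlier on the 3 treated arrays of 3T3-L1 cells, so that no ratio was taken there. Cxcl10 was at -0.96, -1.44, -1.80 and -1.10 on the 3T3-L1 arrays labelled cortisol, serotonin, cortisol-serotonin and untreated. On the RAW 264.7 arrays it was near the floor, with Cy5 signals of 80.0, 84.5, 80.5 and 122 units, of which the array labelled serotonin did not pass.

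The Ccr4 ligand Ccl17 gave 316, 292.5, 209 and 250 units on the 3T3-L1 arrays labelled cortisol, serotonin, cortisol-serotonin and untreated, and 56, 96, 56 and 64 units on those of RAW 264.7 cells. The Ccr10 ligand Ccl27a, by its brightest probe, gave 368, 569, 268.5 and 328 units in 3T3-L1 cells and 45, 145, 51 and 44 units in RAW 264.7 cells. Both passed in RAW 264.7 cells only on the array labelled serotonin, the one with the brighter dim spots. Ppbp, which encodes a Cxcr2 ligand best known from platelets, had 276, 278, 271 and 375 units in 3T3-L1 cells and 42, 77, 68 and 54 units in RAW 264.7 cells, where only the array labelled cortisol-serotonin passed. Cxcl14 was the reverse case, with 49, 89, 53 and 55 units in 3T3-L1 cells, of which only the array labelled serotonin passed, and 772, 824, 997 and 760.0 units in RAW 264.7 cells.

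Of these 9, 3 passed on a single array. Ccl22, which shares Ccr4 with Ccl17, had 59, 39.5, 38 and 39 units on the 3T3-L1 arrays labelled cortisol, serotonin, cortisol-serotonin and untreated and passed on the first, with 36 to 63.5 units in RAW 264.7 cells. Ccl28, a ligand of Ccr10, had 40.0, 75, 61 and 49 units in 3T3-L1 cells and passed on the array labelled serotonin, with 35 to 53.5 units in RAW 264.7 cells. Ccl24, an eosinophil attractant, had 41 to 53 units in 3T3-L1 cells. RAW 264.7 cells gave 41, 129.5, 46 and 44 units, passing again only on the array labelled serotonin. Ccl19, a ligand of Ccr7, passed on all 8 arrays through one or another of its probes, yet the signals of its 3 probes stayed between 35.5 and 107 units and close to the floor in both lines.

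Many of these genes lie next to each other in the genome, and neighbours stood on opposite sides. On chromosome 5 the order is Cxcl5, Ppbp, Pf4, Cxcl3, Cxcl15, Cxcl1 and Cxcl2, with no other protein-coding gene between them in the RefSeq annotation. In this run Cxcl1 was at least 173-fold higher in 3T3-L1 cells, and its neighbour Cxcl2 was 53.7-fold lower. Pf4 and Cxcl3 were the ones seen in RAW 264.7 cells alone. On chromosome 11 the order is Ccl2, Ccl7, Ccl11, Ccl12, Ccl8 and Ccl1, followed after 25 other protein-coding genes by Ccl5, Ccl9, Ccl6, Ccl3 and Ccl4. All measured genes of the first run (Ccl2, Ccl7 and Ccl8) were higher in 3T3-L1 cells, Ccl8 without a test. In the second run Ccl5 was higher in 3T3-L1 cells, whereas Ccl9, Ccl6, Ccl3 and Ccl4 were lower.

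**Figure D3:**
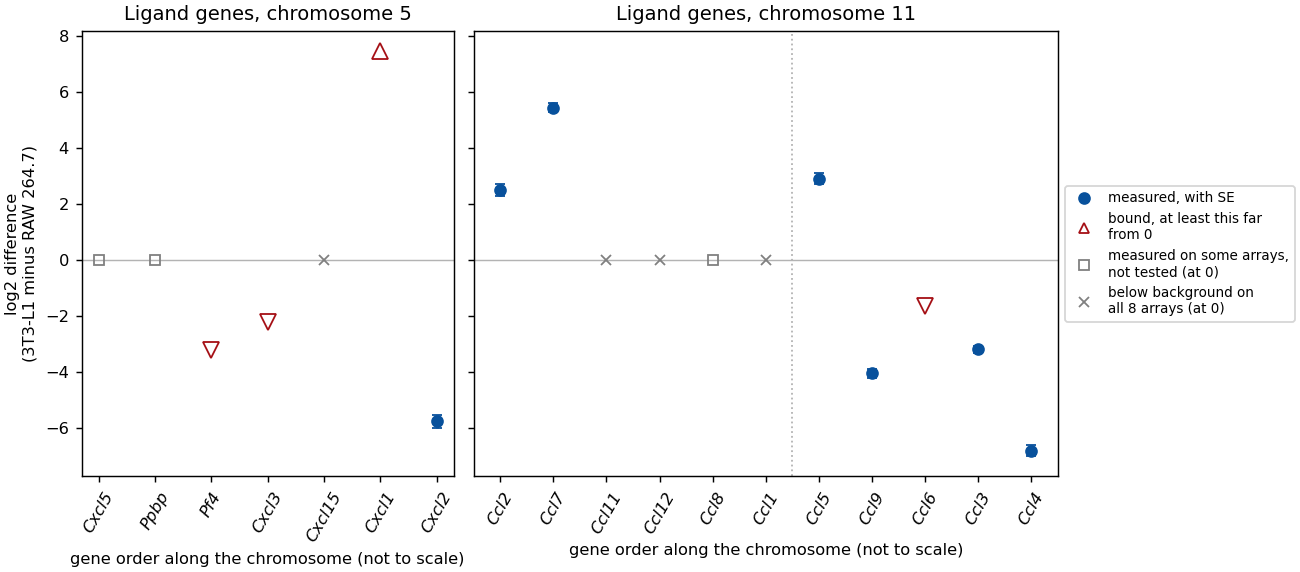
Log2 difference of 3T3-L1 minus RAW 264.7 cells (y axis) for ligand genes in their order along chromosomes 5 and 11 (x axis, not to scale), with circles and SE for measured genes, triangles for bounds, and, placed at 0 because no difference was estimated, squares for genes measured on some arrays and crosses for genes below background on all 8 arrays; the dotted line marks where other genes intervene. Cxcl1 stands above 0 next to Cxcl2 at -5.75, and Ccl5 at 2.90 next to Ccl9 at -4.04.

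The promoters of Cxcl1, Cxcl2 and Cxcl3 are shown because these close neighbours were expressed on opposite sides and yet share a motif. Each window covers 250 bases before to 50 bases after the start site in RefSeq (GRCm38.p6), on the plus strand, at chr5:90890995-90891294 for Cxcl1, chr5:90903649-90903948 for Cxcl2 and chr5:90785851-90786150 for Cxcl3. Capitals mark matches to the kappa B consensus, the motif that NF-kB dimers bind, searched on both strands.
Cxcl1: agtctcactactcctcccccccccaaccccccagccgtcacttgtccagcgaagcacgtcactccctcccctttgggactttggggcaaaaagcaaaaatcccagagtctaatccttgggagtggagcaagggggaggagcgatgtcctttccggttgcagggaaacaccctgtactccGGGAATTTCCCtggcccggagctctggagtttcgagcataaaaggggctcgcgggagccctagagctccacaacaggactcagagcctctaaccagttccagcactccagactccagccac
Cxcl2: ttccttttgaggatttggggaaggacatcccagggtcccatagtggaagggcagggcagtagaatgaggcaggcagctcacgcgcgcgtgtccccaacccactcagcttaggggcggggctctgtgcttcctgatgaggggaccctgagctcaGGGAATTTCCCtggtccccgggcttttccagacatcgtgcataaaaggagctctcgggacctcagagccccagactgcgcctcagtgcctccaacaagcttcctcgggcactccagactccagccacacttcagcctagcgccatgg
Cxcl3: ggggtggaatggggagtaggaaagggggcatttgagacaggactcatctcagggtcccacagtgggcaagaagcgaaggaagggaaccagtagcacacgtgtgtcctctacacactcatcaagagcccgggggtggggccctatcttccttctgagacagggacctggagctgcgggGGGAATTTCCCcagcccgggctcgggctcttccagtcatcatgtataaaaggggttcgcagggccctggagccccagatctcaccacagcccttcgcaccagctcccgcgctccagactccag
All 3 windows hold the same 10 letters, GGGAATTTCC, with the first base at -71 in Cxcl1, -97 in Cxcl2 and -73 in Cxcl3 from the start site, overlapped by a match on the other strand that starts 1 base later. The consensus was found in 8 of 26 ligand promoters in the table (Ccl1, Ccl9, Ccl20, Ccl27a, Cxcl1, Cxcl2, Cxcl3 and Cxcl10) and in 8.46% of all 32851 promoters. TATAAA, searched on both strands, was found in 10 of the 26, against 13.6% of all promoters. Among the 3 windows shown only that of Cxcl3 holds it, at -30, apart from the kappa B match. A match is a description of the letters and not of binding.

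Against the untreated array of 3T3-L1 cells, few ligand genes reached a 2-fold difference. On the array labelled cortisol 0 of 17 measured ligand genes did so, on that labelled serotonin 2 of 17, and on that labelled cortisol-serotonin 1 of 17. Over all genes the 2-fold shares were 1.65%, 1.24% and 1.43% on these arrays. The 3 comparisons share the untreated array, and none has a replicate. The error given beside a value is the one Feature Extraction estimates from the 2 spots.

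On the array labelled serotonin Ccl4 was 3.68-fold lower than in untreated cells (-1.88, error 0.97) and 2.35-fold lower on that labelled cortisol-serotonin (-1.23, error 0.89). On that labelled cortisol its difference was -0.46 (error 0.82). For Cxcl2 the array labelled serotonin was 3.26-fold below the untreated one (-1.70, error 0.93), with -0.89 (error 0.83) on that labelled cortisol-serotonin and -0.49 (error 0.80) on that labelled cortisol. Both are genes with little signal in 3T3-L1 cells: Ccl4 had 235, 116, 172 and 350.0 units of Cy5 on the arrays labelled cortisol, serotonin, cortisol-serotonin and untreated, and Cxcl2 had 125.5, 80.5, 133 and 160.0 units. On the array labelled serotonin, 12 of 12 macrophage markers measured in 3T3-L1 cells were also below the untreated array (median -0.40, lowest -0.87, none at 2-fold), as were 11 of 12 on that labelled cortisol-serotonin (median -0.25) and 7 of 12 on that labelled cortisol (median -0.09). Ccl3 differed by -0.71 and -0.59 on the arrays labelled serotonin and cortisol-serotonin, and Ccl9 by 0.24 and -0.16. In such cultures fewer cells of a type and less RNA per cell cannot be told apart, and the part of macrophage RNA in the lower Ccl4 and Cxcl2 was not tested. In RAW 264.7 cells the Cxcl2 ratio differed from untreated by 0.12, 0.18 and 0.13 on the arrays labelled cortisol, serotonin and cortisol-serotonin. With Cy5 alone, Cxcl2 was at least 2-fold higher on those labelled serotonin and cortisol-serotonin, where the reference signal was higher too.

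**Figure D4:**
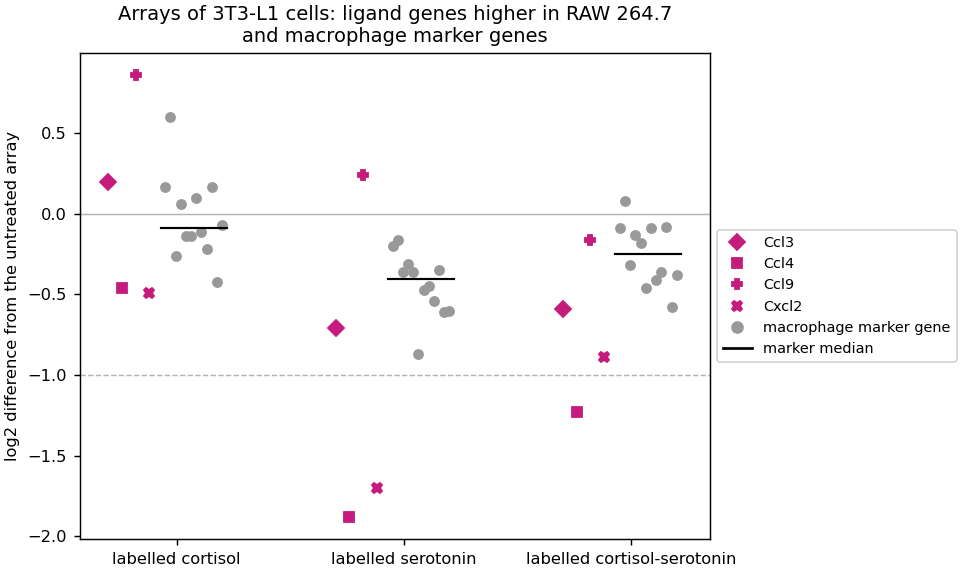
Log2 difference from the untreated array of 3T3-L1 cells (y axis) on each treated array (x axis) for the 4 ligand genes lower in 3T3-L1 than in RAW 264.7 cells (coloured symbols) and 12 macrophage markers (grey points, black line for their median); the dashed line marks 2-fold. Ccl4 at -1.88 and Cxcl2 at -1.70 on the array labelled serotonin lie below every marker, of which the lowest is -0.87.

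The ligand genes with high values in 3T3-L1 cells stayed within 2-fold. Ccl7 differed from the untreated array by 0.94, 0.79 and 0.91 on the arrays labelled cortisol, serotonin and cortisol-serotonin (errors 0.30 to 0.31), and Ccl2 by 0.86, 0.75 and 0.56 (error 0.29 each). Cxcl1 differed by 0.54, 0.72 and 0.74. All 3 treated arrays were above the untreated one for these genes, which rests on the single untreated array. Other ligands split by label. Ccl5 differed by 0.76 on the array labelled cortisol, -0.44 on that labelled serotonin and -0.54 on that labelled cortisol-serotonin, and Ccl17 by 0.69, -0.27 and -0.49. Cx3cl1 differed by 0.19, -0.80 and -0.79, and Cxcl10 by 0.14, -0.33 and -0.70. Cxcl12 differed by -0.68, -0.57 and -0.31. A second reading of the cortisol label is the array labelled cortisol-serotonin against that labelled serotonin. It gave 0.13 for Ccl7, -0.19 for Ccl2, 0.02 for Cxcl1, -0.10 for Ccl5 and -0.22 for Ccl17. Cx3cl1 gave 0.01, Cxcl10 gave -0.36 and Cxcl12 gave 0.25. For these genes no rise on the array labelled cortisol recurred at its size in the second reading. The median over the 17 ligand genes was 0.43 on the array labelled cortisol, -0.33 on that labelled serotonin and -0.31 on that labelled cortisol-serotonin, beside medians of 0.01, 0.01 and 0.02 over all genes. Without loess, after centring each array on its median, all genes moved by 0.59, 1.07 and 0.99 on these arrays; Ccl4 and Cxcl2 then differed by -0.68 and -0.56 on the array labelled serotonin.

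**Figure D5:**
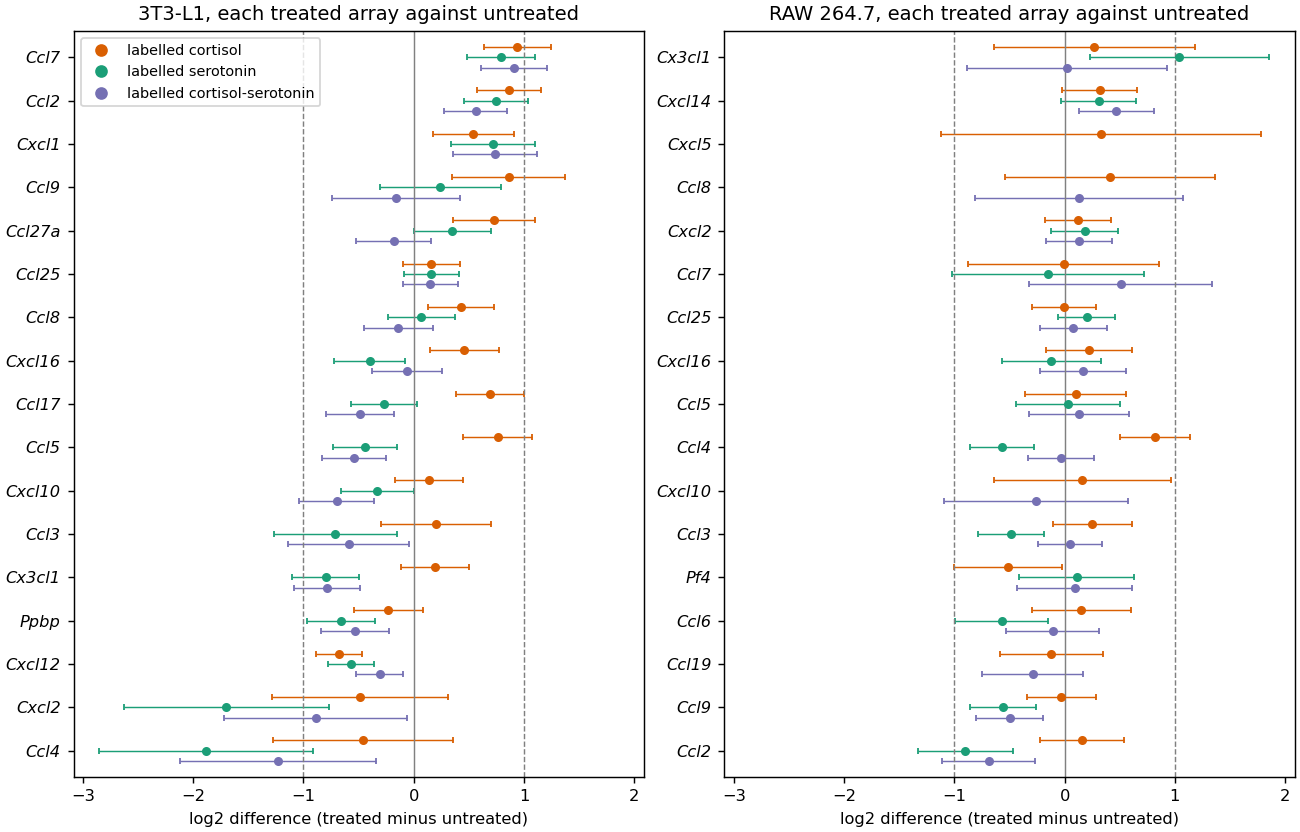
Log2 difference of each treated array from the untreated array of its line (x axis) for the ligand genes measured on both (y axis), 3T3-L1 cells on the left and RAW 264.7 cells on the right; points are single arrays, bars the error of Feature Extraction, and dashed lines 2-fold. In 3T3-L1 cells Ccl4 reaches -1.88, and in RAW 264.7 cells only Cx3cl1 on the array labelled serotonin, at 1.04, lies past 2-fold.

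In RAW 264.7 cells 0 of 17 measured ligand genes reached 2-fold on the array labelled cortisol, 1 of 13 on that labelled serotonin and 0 of 16 on that labelled cortisol-serotonin. The shares over all genes were 0.083%, 0.914% and 0.254%. Cx3cl1 was the exception, 2.06-fold higher on the array labelled serotonin (1.04, error 0.81), against 0.27 and 0.02 on those labelled cortisol and cortisol-serotonin. It came to 0.94 with median centring, where Ccl2 was 2-fold lower instead, and to 0.32 with Cy5 alone, where Ccl3, Cxcl2 and Cxcl3 were 2-fold higher instead. Its Cy5 signal was 69, 145 and 92 units on the arrays labelled cortisol, serotonin and cortisol-serotonin and 94 units on the untreated one, close to the floor, on the array with the brighter dim spots; the part of that brightness was not tested. Ccl2 differed by 0.16, -0.90 and -0.69 on the arrays labelled cortisol, serotonin and cortisol-serotonin (errors 0.38 to 0.43). Ccl4 differed by 0.82, -0.57 and -0.03, Ccl3 by 0.25, -0.49 and 0.05, and Ccl9 by -0.03, -0.56 and -0.50. Pf4 differed by -0.51, 0.11 and 0.09. The medians over the measured ligand genes were 0.16, -0.12 and 0.06, beside 0.02, -0.04 and 0 over all genes.

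A limma model of the 8 arrays with additive terms for the labels cortisol and serotonin within each line called 0 of the 10 ligand genes for any of the 4 terms, at a Benjamini-Hochberg adjusted p of 0.05. Over all 10995 genes it called 0 for cortisol and 0.109% for serotonin in 3T3-L1 cells, and 0 for either in RAW 264.7 cells. At an unadjusted p of 0.05, 6 of the 10 ligand genes passed for the serotonin label in 3T3-L1 cells, where 13.2% of all genes did. They were Ccl4 (-1.33 ± 0.249, log2 effect ± SE), Cxcl2 (-1.05 ± 0.276), Cx3cl1 (-0.89 ± 0.276), Ccl5 (-0.87 ± 0.208), Ccl3 (-0.75 ± 0.146) and Cxcl16 (-0.46 ± 0.137), all lower with the serotonin label, with limma adjusted p-values from 0.13 for Ccl4 to 0.263 for Cx3cl1. Ccl2 and Ccl7 stood at 0.23 ± 0.235 and 0.38 ± 0.236. For the cortisol label in 3T3-L1 cells 1 ligand gene passed unadjusted (Cxcl16, 0.40 ± 0.137), against 2.79% of all genes. For RAW 264.7 cells 2 passed unadjusted for cortisol, Ccl4 (0.68 ± 0.249) and Ccl3 (0.40 ± 0.146), against 2.58% of all genes. For serotonin 3 passed there, Ccl2 (-0.87 ± 0.235), Ccl4 (-0.71 ± 0.249) and Ccl3 (-0.35 ± 0.146), against 3.32%. The fitted serotonin terms of Ccl3 and Ccl4 were thus below 0 in both lines.

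The absence of calls depended on which arrays set the spread. Leaving out any 1 array of RAW 264.7 cells let the model fit the rest of that line exactly. The spread then came from 1 residual df, in the 3T3-L1 arrays only. These fits gave 4 or 5 called ligand genes for the serotonin label in 3T3-L1 cells. Ccl4, Ccl5, Cx3cl1 and Cxcl2 were called in each, and Ccl3 in addition without the array labelled serotonin or that labelled cortisol-serotonin. All genes were then called at 1.15% to 2.23%. Leaving out any 1 array of 3T3-L1 cells gave 0. With the arrays of 3T3-L1 cells fitted alone, 6 were called (Ccl3, Ccl4, Ccl5, Ccl17, Cx3cl1 and Cxcl2), beside 2.83% of all genes. This fit and those without a RAW 264.7 array rest on the same 1 residual df, so they are not separate evidence.

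The serotonin label can be read from 2 pairs of arrays in each line, from the array labelled serotonin against the untreated one and from that labelled cortisol-serotonin against that labelled cortisol, which share no array. Ccl4 gave -1.88 and -0.77 in 3T3-L1 cells, Ccl5 gave -0.44 and -1.30, and Cx3cl1 gave -0.80 and -0.98. Ccl17 gave -0.27 and -1.17, and Ccl9 gave 0.24 and -1.02. Cxcl2 gave -1.70 and -0.40, and Ccl2 gave 0.75 and -0.30. Of the 17 ligand genes with both readings in 3T3-L1 cells, Ccl2, Ccl4, Ccl9 and Cxcl2 thus had readings more than 1 apart on the log2 scale. The readings of Ccl2 and Ccl9 differed in sign. So did those of Cxcl12 (-0.57 and 0.37), Ccl27a (0.35 and -0.32), Ccl8 (0.07 and -0.57), Ccl7 (0.79 and -0.02) and Ccl25 (0.16 and -0.01). Cx3cl1 in RAW 264.7 cells gave 1.04 and -0.26. A test of whether the serotonin term differed between the lines was passed by 0 genes after adjustment (limma; 824 of 10995 unadjusted). Cx3cl1 came to -1.28 (3T3-L1 minus RAW 264.7; unadjusted p = 0.0122, adjusted p = 0.591), Cxcl2 to -1.14 (adjusted p = 0.605) and Ccl2 to 1.1 (adjusted p = 0.591).

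The receptors that could receive these ligands were mostly not measured. Of 24 chemokine receptor genes, all with a probe, 4 were above background on all 4 3T3-L1 arrays and 16 on none, and 6 were above background on all 4 arrays of RAW 264.7 cells and 13 on none. Besides Cx3cr1, which was lower in 3T3-L1 cells, the scavenger receptor gene Ackr3, whose product binds Cxcl12, was 55.7-fold higher in 3T3-L1 cells (5.80 ± 0.159, limma adjusted p = 4.06e-10). In 3T3-L1 cells Ccr7 and Ccrl2 had differences of 1.16 and 1.01 on the array labelled cortisol (errors 0.41 and 0.36), and Cx3cr1 had -1.23 on that labelled serotonin (error 0.90). No receptor gene reached 2-fold in RAW 264.7 cells.

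In 3T3-L1 cells few genes of the pathways that drive inflammatory ligands reached 2-fold. Of 23 NF-kB pathway genes measured in 3T3-L1 cells, 1 (Il1a, 2.15-fold higher on the array labelled cortisol) reached 2-fold on any treated array. Their medians were 0.13, -0.13 and -0.02 on the arrays labelled cortisol, serotonin and cortisol-serotonin. Of 14 interferon signalling genes measured in 3T3-L1 cells none reached 2-fold, with medians of 0, -0.12 and -0.08. Of all genes, 1.65%, 1.24% and 1.43% reached 2-fold on these arrays, so the counts do not set the pathway genes apart. The activity of the pathways was not tested. Between the lines, 6 of 20 tested NF-kB genes were higher in 3T3-L1 cells and 10 were lower, while 9 of 13 interferon genes were higher and 2 lower, beside 38% higher and 36.3% lower over all genes. Tnf, an NF-kB target made by macrophages, was 30.9-fold lower in 3T3-L1 cells (-4.95 ± 0.112, limma adjusted p = 1.72e-10), on the same side as Ccl3 and Ccl4.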

How the data were processed

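RNA of co-cultured 3T3-L1 and RAW 264.7 cells was measured on 8 two-colour Agilent arrays, 1 per line and treatment. By the labels the authors scanned them with Agilent Feature Extraction 10.5.1.1, and the deposited files give median signal and background intensity of both channels per spot, not normalised between arrays. The deposited files also give Feature Extraction's processed intensities and a log10 ratio (Cy5 over Cy3) with its error; the authors' p-value of it was not used. The deposited series matrix equals the log10 ratio (Cy5 over Cy3). No mean signals were given, so median signals replaced those planned. Labels describe the reference as equal parts of all samples' RNA, the methods as pooled cRNA of both untreated lines grown alone.

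Background was corrected with normexp (offset 50) and ratios normalised by loess within arrays (limma 3.58.1, R 4.3.3; control spots at weight 0). Spots marked as outliers were dropped. Accessions were matched to a RefSeq table (GRCm38.p6, names and gene order only), which named 69.8% of 39429 probes. A gene's value is the mean over those probes that passed as above background in Cy5 and in Cy3. Lines were compared with limma with treatment as a block (3 residual df), hormones with an additive limma model (2 residual df), both with Benjamini-Hochberg adjustment at 0.05 over all genes measured on all 8 arrays. Single arrays were compared at 2-fold without a test. Background counts used Cy5 and kept outlier spots. The fits were also run on simulated data with independent normal residuals, which cannot show how slide or missing replicates affect the calls. Slide could not be a block, since each held 1 line. Alternatives were processed signals, median centring, no background correction, no filter, Cy5 alone, outlier spots kept and a 1.5-fold threshold (both added after the data were seen) and leaving out each array. No spot was saturated; the number of arrays limits precision.

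Members and lists were chosen with earlier results of these data known. Values on every array are given for members 2-fold changed, called, or above background on part of a line's arrays; receptors and pathway genes are named where 2-fold changed. Tnf, Ackr3 and Cx3cr1 between the lines, and the ligands with bounds, were named after their values were seen. The kappa B consensus replaced a narrower pattern, and an interferon motif was dropped, after the matches had been seen, so motif shares are descriptions only.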

Additional observations from a re-analysis of the deposited data

Results flagged for a closer look

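The serotonin term of Ccl5 was below 0 in both readings of 3T3-L1 cells and just above 0, within its error, in both of RAW 264.7 cells. In 3T3-L1 cells the array labelled serotonin differed from the untreated one by -0.44 and that labelled cortisol-serotonin from that labelled cortisol by -1.30, whereas both readings in RAW 264.7 cells were 0.03 and the fitted term was 0.03 ± 0.208 (log2 ± SE). The difference of the terms, 3T3-L1 minus RAW 264.7, was -0.90 (log2; limma, unadjusted p = 0.017, adjusted p = 0.599) and did not pass the adjustment.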

How the results depend on the processing

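The 10 calls between the lines kept their direction under every alternative and each left-out array; with Cy5 alone Ccl3 was no longer called. Without the filter on dim probes 12 of 32 tested ligand genes were called higher and 9 lower in 3T3-L1 cells, beside 35.5% of all genes called. These calls include genes without signal, such as Ccl11 (-0.41, limma adjusted p = 0.0193), which was below background on every array. For 2-fold ligand genes (0, 2 and 1 on the 3T3-L1 arrays labelled cortisol, serotonin and cortisol-serotonin), median centring gave 9, 6 and 3, most of it the shift of all genes, while Ccl4 on the array labelled cortisol-serotonin came to -0.13; relative to that shift Ccl2, Ccl5, Ccl7 and Ccl9 were 2-fold higher on the first, Ccl2, Ccl7 and Cxcl1 on the second and Ccl7 on the third, with Ccl4 and Cxcl2 lower on the second and Ccl4 on the third. Cy5 alone gave 3 on the first and 3 on the third, with Cxcl2 at -0.77 on that labelled serotonin. In RAW 264.7 cells (0, 1 and 0), Cy5 alone gave 1, 3 and 4, no filter gave 2 and 1 on the arrays labelled serotonin and cortisol-serotonin, and keeping outlier spots gave 2 on that labelled serotonin (Ccl8 added). At a 1.5-fold threshold, chosen after the values were seen, 7, 8 and 7 of 17 ligand genes passed on the 3T3-L1 arrays in the same order, beside 11.1%, 8.27% and 7.7% of all genes, and 1 of 17, 2 of 13 and 1 of 16 on those of RAW 264.7 cells, beside 0.785%, 4.08% and 2.16%. The causes of these moves were not tested.

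For the serotonin term in 3T3-L1 cells (0 called), median centring called 2 of 10 ligand genes (Ccl2 and Ccl7). It called 41.2% of all genes, so this count does not set the ligand genes apart. Fitting each line alone called 6, beside 2.83% of all genes. Leaving out 1 array called 0 to 5, beside at most 2.23%. The lines were paired by treatment, and without the treatment term the same 10 genes were called. By replicate number, no paired analysis was possible because the labels give no such numbers and each condition has 1 array. Signals near background limit Ccl4, Cxcl2, Cx3cl1 and Cxcl16 on the arrays where they are low.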
